A study of Mus musculus with 27 samples.

Results

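The 9 genes described here, Ifit1, Ifit2, Ifit3, Isg15, Oasl2, Ifi44, Gbp2, Irf1 and Irf7, are interferon-stimulated genes, taken by symbol from the 35975 genes whose transcripts were quantified in adult mouse colon. All 9 were listed in both of the authors' deposited gene matrices, and all 9 passed the filter on low counts in every comparison. The libraries were made from polyA RNA of 1 cm pieces of proximal or distal colon of 14 mice of mixed background, 13 of which gave both segments. Foxa1/2-deficient mice (7 proximal and 7 distal libraries) carried Villin1-Cre; Foxa1lox/lox; Foxa2lox/lox, and control mice (7 proximal and 6 distal) carried floxed alleles as well: 5 were Foxa1lox/lox; Foxa2lox/lox without Cre, 1 was Villin1-Cre; Foxa1lox/wt; Foxa2lox/wt and 1 was Villin1-Cre; Foxa1lox/lox; Foxa2lox/wt. Villin1-Cre is active in the intestinal epithelium, so the other cells of each piece kept both genes, forkhead transcription factors that open chromatin. Control mice were male and 9 to 18 months old, 3 of them 18 months, and deficient mice were 9 to 13 months old with 2 of the 7 labelled female. The comparisons ask whether these genes differ between deficient and control colon within each segment, whether that difference itself differs between segments, and how the segments differ within each genotype.

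Interferons are secreted when sensors detect foreign or misplaced nucleic acid. Type I and type III interferons activate a complex that contains Stat2 and Irf9 and binds interferon-stimulated response elements (ISREs), whereas interferon gamma, made by T cells and NK cells, acts mainly through gamma-activated sites (GAS). In the intestine both the epithelium and the underlying immune cells respond, and the response restrains viruses and intracellular bacteria.

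The bases just before the start of 5 of the genes are shown because they hold the letters of those elements, printed 5′ to 3′ on the gene's strand with matches in capitals (RefSeq, GRCm38.p6). They are, in the order shown, chr19:34640719-34640888 (+), chr19:34583359-34583528 (+), chr4:156200819-156200988 (−), chr3:142620493-142620631 (+) and chr11:53769844-53770013 (+).
Ifit1: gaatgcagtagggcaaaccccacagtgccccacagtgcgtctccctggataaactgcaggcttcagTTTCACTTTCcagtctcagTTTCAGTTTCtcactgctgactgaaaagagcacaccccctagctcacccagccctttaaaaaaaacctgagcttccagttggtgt
Ifit3: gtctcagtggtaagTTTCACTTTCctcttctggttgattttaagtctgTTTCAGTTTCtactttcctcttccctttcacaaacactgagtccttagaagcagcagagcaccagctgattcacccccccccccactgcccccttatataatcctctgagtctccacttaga
Isg15: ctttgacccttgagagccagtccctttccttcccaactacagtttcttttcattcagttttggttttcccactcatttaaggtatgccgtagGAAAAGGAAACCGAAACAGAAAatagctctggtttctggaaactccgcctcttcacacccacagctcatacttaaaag
Gbp2: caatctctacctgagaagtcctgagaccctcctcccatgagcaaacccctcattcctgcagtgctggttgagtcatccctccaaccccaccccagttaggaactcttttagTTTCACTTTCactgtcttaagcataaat
Irf1: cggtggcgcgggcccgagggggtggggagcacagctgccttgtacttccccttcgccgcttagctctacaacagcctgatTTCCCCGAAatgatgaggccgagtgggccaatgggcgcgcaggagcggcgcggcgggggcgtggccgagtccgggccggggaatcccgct
The ISRE core was searched as TTTCNNTTTC and its reverse complement GAAANNGAAA, and the GAS as TTCNNNGAA, which is its own reverse complement, in windows from 250 bases before to 50 bases after each RefSeq start. All 9 genes matched, with 11 windows, since Ifit2 and Irf1 have a second start. The stretch printed for Gbp2 ends 32 bases before its start, and the other stretches end 1 base before theirs. The ISRE core was found before Ifit1 (2 matches, from 104 bases before the start), Ifit3 (2, from 156 bases), Isg15 (3 overlapping, from 78 bases) and Gbp2 (1, from 59 bases). It stood in 3.44% of the 32851 windows of all genes. The GAS letters were found before Irf1 (90 bases) and Ifit2 (241 bases, not shown), and in 8.3% of all windows. Neither motif was in the windows of Oasl2, Irf7 and Ifi44.

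Libraries held 18472867 to 56744113 estimated counts, and levels are CPM, counts relative to the scaled total of the library, over all 27 libraries. Foxa2 ran from 0.326 to 1.75 CPM in deficient libraries and from 6.05 to 30.4 CPM in control libraries. In deficient libraries Foxa1 ran from 7.21 to 14.5 CPM. In control replicate 6, labelled Villin1-Cre; Foxa1lox/lox; Foxa2lox/wt, the proximal library held 13.9 and the distal library 7.60 CPM of Foxa1, and the other control libraries held 42.4 CPM or more. All 12 epithelial markers, from Epcam to Cdx2, were detected in every group. In whole tissue, fewer cells of a type and less RNA per cell cannot be told apart. The labels name no litters or collection days, but the 3 control mice of 18 months carry consecutive mouse numbers, as do some deficient mice. Some consecutive numbers also join control and deficient mice of the same age. The p-values treat mice as independent, and the part of shared litters or days was not tested.

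On the per-length scale (TPM), the 9 genes covered a range from a median of 7.76 TPM for Ifi44 to 193 TPM for Irf7 within proximal control colon. Irf7, the transcription factor that drives type I interferon genes, lay above Irf1 in 7 of 7 proximal control libraries. Irf1, a transcription factor of interferon gamma targets and class I presentation genes, followed at 135 TPM, then Oasl2, an oligoadenylate synthetase-like protein, at 97.7 TPM and the ubiquitin-like modifier Isg15 at 83.3 TPM. The ranges of every pair of neighbours in this order overlapped in each of the 4 groups. In distal control colon the order was Irf1, Oasl2, Irf7, Isg15, Gbp2, Ifit1, Ifit2, Ifit3 and Ifi44, from 234 to 13.1 TPM, and Gbp2, a guanylate-binding GTPase that attacks vacuoles holding intracellular pathogens, stood at 62.8 TPM against 16.3 TPM in proximal control colon. In distal deficient colon Isg15 led with 265 TPM and Ifit2 had moved to the fifth place, at 115 TPM against 36.7 TPM in distal control colon.

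**Figure D1:**
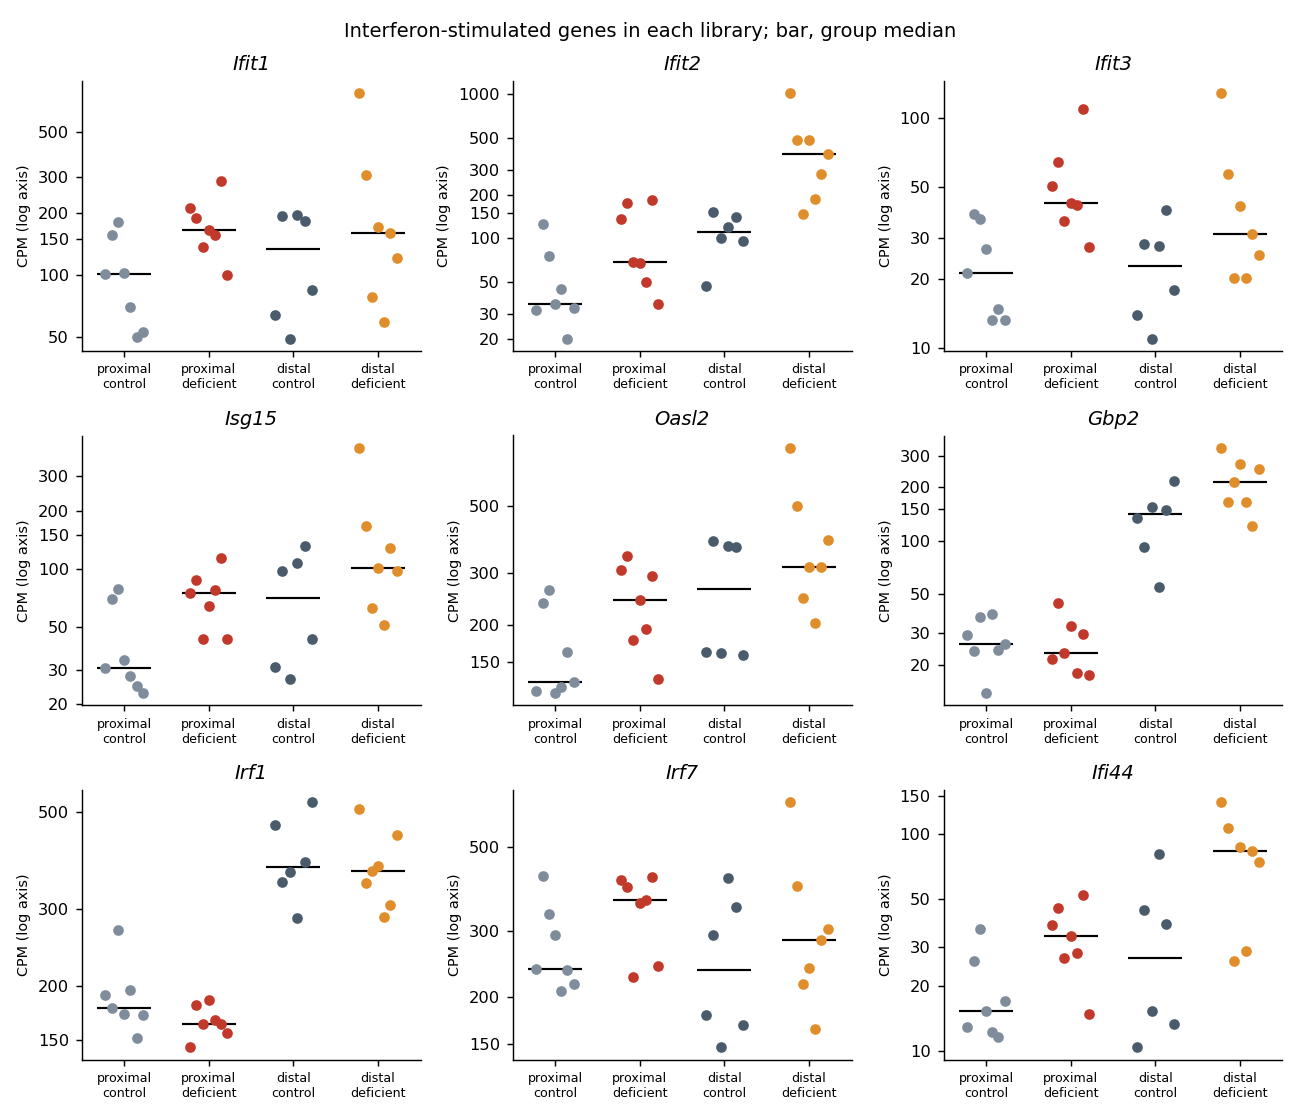
Level of each of the 9 genes in every library (CPM, log axis), by segment and genotype, with the group median as a bar and replicates in label order from left to right. The control and deficient libraries of a segment overlap for all 9 genes, Gbp2 and Irf1 separate the segments, and distal deficient replicate 1 is the highest library for Ifit1, Ifit2, Ifit3, Isg15, Oasl2, Irf7, Ifi44 and Gbp2.

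In proximal colon, 1 of the 9 genes passed the threshold between genotypes: Ifit3 rose, by a log2 fold change of 1.19 ± 0.32 (SE), or 2.29-fold (adjusted p = 0.0213, edgeR's quasi-likelihood test, Benjamini-Hochberg adjusted over 16787 genes). Over all genes tested, 11.7% were called and 5.52% were called higher, so 1 of 9 is a share near the background. The median log2 fold change of the 9 was 0.82 beside 0.0079 over all genes, with 7 of 9 above 0. At an unadjusted p under 0.05 there were 6 of the 9, beside 3850 of the 16787 genes. DESeq2 called 4 of the 9 higher, Ifit1, Ifit3, Isg15 and Ifi44, and called 2468 genes in all, in either direction.

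The Ifit proteins, encoded side by side on chromosome 19, bind viral RNA or its translation machinery. Ifit3 (chr19:34583531-34588731) had a lowest, median and highest level of 13.2, 21.2 and 38.5 CPM in control and of 27.5, 42.6 and 109.7 CPM in deficient proximal colon. All 7 deficient libraries lay above the control median and 5 above the highest control library, yet the groups overlapped. Ifit2 (chr19:34550694-34576419) was at 20.2, 35.01 and 127 CPM in control and 35.2, 69.2 and 184 CPM in deficient libraries. Its log2 fold change of 0.98 ± 0.44 (SE) did not pass (adjusted p = 0.188), with control replicate 2, at 127 CPM, above 4 of the 7 deficient libraries. Ifit1 (chr19:34640871-34650009) was at 50.1, 102 and 183 CPM and 101, 167 and 287 CPM, a log2 fold change of 0.82 ± 0.29 (SE) (adjusted p = 0.0874).

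Isg15 (chr4:156199424-156200818) was at 22.8, 30.7 and 78.8 CPM in control and 43.1, 74.8 and 114 CPM in deficient proximal libraries, a log2 fold change of 0.82 ± 0.31 (SE) (adjusted p = 0.102). Its control libraries were split, replicates 2 and 3 at 69.5 and 78.8 CPM and the other 5 at no more than 33.8 CPM. Ifi44 (chr3:151730922-151749960), an interferon-induced cytoplasmic protein, was at 11.6, 15.3 and 36.3 CPM and 14.9, 33.8 and 52.1 CPM (0.88 ± 0.29 (SE), adjusted p = 0.0632). The same 2 control libraries were the highest controls for Ifi44 and for Oasl2. Oasl2 (chr5:114896936-114912234) was at 118, 128 and 262 CPM and 132, 242 and 341 CPM, with a log2 fold change of 0.56 ± 0.24 (SE) (adjusted p = 0.155). Without control replicate 3 the log2 fold changes were 1.12 (adjusted p = 0.00999) for Ifi44, 1.05 (adjusted p = 0.0226) for Isg15 and 1.01 (adjusted p = 0.0264) for Ifit1, which brought the number called to 4 of 9; without control replicate 2, Ifit2 and Isg15 joined Ifit3, making 3 of 9, and without deficient replicate 7 Ifi44 did (1.01 (adjusted p = 0.0227)), making 2 of 9.

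For the 3 remaining genes no difference between genotypes was called in proximal colon. Irf7 (chr7:141262706-141266481) was at 208, 238 and 419.8 CPM in control and 226, 361 and 417 CPM in deficient libraries (0.32 ± 0.18 (SE), adjusted p = 0.313). Gbp2 (chr3:142620602-142638008) was at 13.9, 26.03 and 38.8 CPM and 17.5, 23.4 and 44.5 CPM, with a log2 fold change of -0.028 ± 0.23 (SE) (adjusted p = 0.967). Irf1 (chr11:53770014-53778374) had the smallest spread of the 9, at 152, 178 and 268 CPM and 144, 163 and 186 CPM (-0.18 ± 0.11 (SE), adjusted p = 0.374), and none of its deficient libraries exceeded the highest control library. The approximate 95% interval of the Irf1 difference ran from -0.39 to 0.035, and that of Gbp2 from -0.49 to 0.43.

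Control and deficient mice differed in age and Cre, and the proximal Ifit3 call was lost in the subset by age and in the subset by Cre, which hold fewer libraries. The 3 control mice of 18 months held the lowest levels, at 13.2, 14.8 and 13.3 CPM, and no deficient mouse was older than 13 months. At 9 months, the control library was at 38.5 CPM and the deficient libraries were at 51.0 and 64.6 CPM; at 10.5 months, 2 control libraries were at 21.2 and 36.6 CPM and the deficient library at 42.6 CPM; at 11 months they were at 27.1 and 109.7 CPM. The deficient libraries of 10, 12 and 13 months, ages with no control mouse, were at 35.6, 27.5 and 41.8 CPM, the first 2 of them below the highest control libraries of 9 and 10.5 months. Among mice of 9 to 13 months only, the log2 fold change was 0.79 (adjusted p = 0.185), and against control mice without Cre only it was 1.06 (adjusted p = 0.0828), with none of the 9 genes called in either setting. Among mice labelled male only it was 1.38 (adjusted p = 0.0148), with Ifi44 called as well. The part of age, and of Cre itself, in the result was not tested beyond these fits.

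In distal colon, 1 of the 9 genes again passed, but it was Ifit2, which rose by a log2 fold change of 1.956 ± 0.42 (SE), or 3.88-fold (adjusted p = 0.0107, edgeR's quasi-likelihood test). Over the 16041 genes tested, 6.07% were called and 2.7% called higher. DESeq2 called 1 of the 9 and 1504 genes in all. Ifit2 was at 46.8, 111 and 153 CPM in control and at 148, 385 and 1016 CPM in deficient libraries. Deficient libraries lay above the highest control library in 6 of 7 cases, and the remaining one, replicate 3 at 148 CPM, lay below control replicate 2 at 153 CPM. Replicate 1, at 1016 CPM, stood apart from the next library, at 480.1 CPM; without it, the log2 fold change was 1.58 (adjusted p = 0.0122). The call held under each left-out library, with adjusted p from 0.00516 to 0.0272.

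Ifit1, Ifit3 and Isg15 varied more widely in distal than in proximal deficient colon and were not called there. Ifit1 was at 49.3, 134 and 197 CPM in control and 59.4, 160.4 and 768 CPM in deficient libraries, and the next library after replicate 1 was at 308 CPM. Its log2 fold change was 0.89 ± 0.56 (SE) (adjusted p = 0.450). Ifit3 was at 11.0, 22.8 and 39.8 CPM and 20.2, 31.2 and 128 CPM, with a log2 fold change of 1.01 ± 0.45 (SE) (adjusted p = 0.247). Isg15 was at 26.9, 70.2 and 131 CPM and 51.5, 101 and 422 CPM (1.02 ± 0.51 (SE), adjusted p = 0.312). The deficient libraries above the highest control library numbered 2 of 7 for Ifit1, 3 for Ifit3 and 2 for Isg15. Without replicate 1 the log2 fold changes of these 3 genes, in that order, were 0.23, 0.51 and 0.49.

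Ifi44 was at 10.4, 26.8 and 80.8 CPM in control and 25.997, 83.6 and 139.7 CPM in deficient distal libraries (1.21 ± 0.51 (SE), adjusted p = 0.215), with 4 of 7 deficient libraries above the highest control. Oasl2 was at 159, 264 and 382 CPM and 204, 314 and 787 CPM (0.57 ± 0.33 (SE), adjusted p = 0.413). Gbp2 was at 54.8, 141 and 217 CPM and 121, 214 and 333 CPM, a log2 fold change of 0.71 ± 0.29 (SE) (adjusted p = 0.200). The 2 transcription factors showed no called difference: Irf7 was at 147, 236 and 415 CPM and 164, 284 and 657 CPM (0.33 ± 0.32 (SE), adjusted p = 0.658), and Irf1 at 287, 374 and 526.4 CPM and 287, 367 and 507 CPM (-0.064 ± 0.16 (SE), adjusted p = 0.876). Over the 9 genes the median log2 fold change was 0.89 beside 0.0092 over all genes, with 8 of 9 above 0. In neither segment did any of the 9 separate the genotypes without overlap, whereas 4.81% of all genes tested in proximal and 3.4% in distal colon did.

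**Figure D2:**
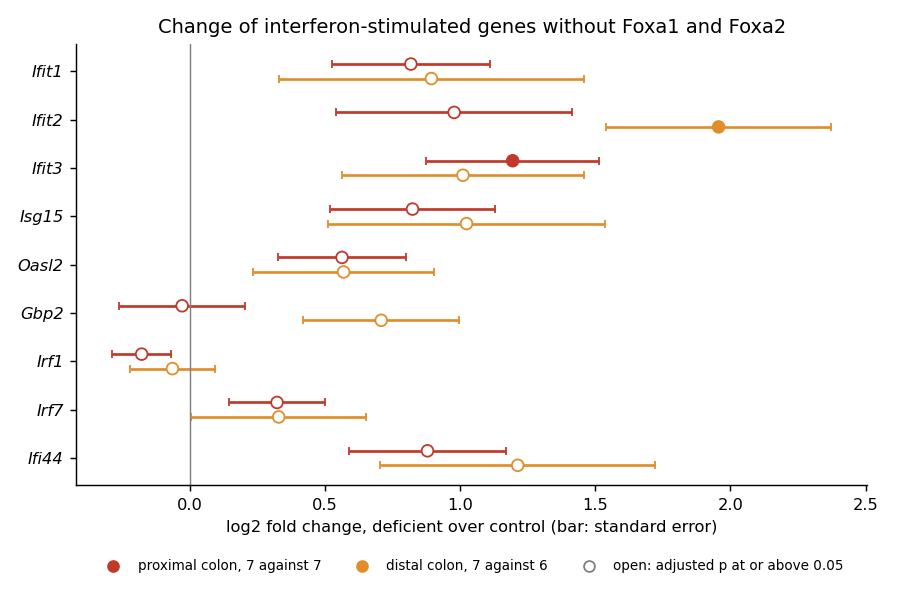
Log2 fold change of deficient over control for each of the 9 genes in proximal (7 against 7 libraries) and distal colon (7 against 6), with the standard error as a bar and filled points where the adjusted p is under 0.05. Ifit3 in proximal and Ifit2 in distal colon are filled, and Irf1 lies at or just below 0 in both segments.

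The difference between the 2 genotype effects was tested directly, with the mouse as a block, and none of the 9 was called (edgeR's quasi-likelihood test; 1.01% of 17595 genes were called). At an unadjusted p under 0.05 there was 1 of the 9, Gbp2, beside 2026 of the 17595 genes, which is near the background. DESeq2 called 0 of the 9 and 529 genes in all. For Ifit2 the distal effect exceeded the proximal one by 0.88 ± 0.48 (SE) on the log2 scale (adjusted p = 0.508), with an approximate 95% interval of -0.062 to 1.82. For Ifit3 the difference was -0.24 ± 0.51 (SE) (adjusted p = 0.896), so the calls of Ifit3 in one segment and Ifit2 in the other do not show that the segments differ. For Gbp2 it was 0.81 ± 0.33 (SE) (adjusted p = 0.347).

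Close copies in the Ifit cluster can share reads, and the authors' quantification divides such reads between transcripts. Ifit3b, the near-identical neighbour of Ifit3, was at 4.53 to 12.7 CPM in proximal control and 7.08 to 29.8 CPM in proximal deficient libraries (0.73 ± 0.33 (SE), adjusted p = 0.193). Summing both left the proximal call in place, at 1.09 (adjusted p = 0.0349). Ifit1bl1 and Ifit1bl2, the Ifit1-like genes between Ifit3 and Ifit1, are described because their reads could be mixed with those of Ifit1. Ifit1bl1 rose with segment, from 109 to 429.6 CPM in proximal to 909.5 to 1975 CPM in distal control colon (2.51 ± 0.36 (SE), adjusted p = 5.82e-04).

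Ifit1bl2 (chr19:34617049-34640743) has a start 146 bases from that of Ifit1 and runs the other way. The sequence printed for Ifit1 includes all the bases between these starts, and their promoter windows share 245 bases. A further RefSeq start of Ifit1bl2 lies 11078 bases from that of Ifit1, with 0 bases shared, and which start was used was not tested. In distal colon Ifit1bl2 fell, from 38.2, 60.4 and 98.6 CPM (lowest, median and highest) in control to 7.13, 15.9 and 33.5 CPM in deficient libraries, which did not overlap (-1.62 ± 0.32 (SE), adjusted p = 0.00726). In proximal colon it rose, from 33.2, 39.7 and 72.0 CPM to 44.2, 67.1 and 78.4 CPM (0.59 ± 0.17 (SE), adjusted p = 0.0343), a call that was lost when control replicate 1, 4, 5 or 7 or deficient replicate 1, 4, 5 or 6 was left out, with adjusted p up to 0.0808. It was called in 13 of 23 alternatives, and was lost among mice of 9 to 13 months (adjusted p = 0.253) and against control mice without Cre. The difference between segments was -2.25 ± 0.42 (SE) (adjusted p = 0.0158). With Ifit1, Ifit1bl1 and Ifit1bl2 summed, the log2 fold change was 0.42 (adjusted p = 0.393) in proximal and -0.012 (adjusted p = 0.993) in distal colon, a sum led by Ifit1bl1.

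Several of the 9 genes were called higher in distal than in proximal colon of the same mice, as were many other genes. In control mice 3 of 9 were called higher in distal colon, Gbp2, Irf1 and Ifit2, and none lower, where 21.5% of 16507 genes were called higher and 43.8% in either direction (edgeR's quasi-likelihood test with the mouse as a block). In deficient mice 5 of 9 were called higher, those 3 with Ifi44 and Oasl2, beside 22.7% higher and 45.1% in either direction of 16514 genes. The 3 of 9 in control mice is a share near the background, and whether 5 of 9 exceeds it was not tested. Gbp2 was 27.9 ± 9.29 CPM (SD, n = 6) in proximal and 134 ± 55.7 CPM in distal colon of control mice, and 26.8 ± 9.66 and 217 ± 73.2 CPM (n = 7) in deficient mice. It was higher in distal colon in all 13 mice, by log2 fold changes of 2.21 ± 0.17 (SE) (adjusted p = 1.91e-05) and 3.02 ± 0.27 (SE) (adjusted p = 3.06e-05).

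Irf1 was also higher in distal colon in all 13 mice. Its log2 fold change was 1.03 ± 0.17 (SE) in control (adjusted p = 0.00117) and 1.159 ± 0.14 (SE) in deficient mice (adjusted p = 1.66e-04), and its proximal and distal ranges did not overlap. How many of all genes separate the segments in this way was not counted. Ifit2 was higher in distal colon in 6 of 6 control mice (1.15 ± 0.27 (SE), adjusted p = 0.00828) and in 7 of 7 deficient mice (2.03 ± 0.34 (SE), adjusted p = 0.00121). Over all genes, 18.8% were higher in distal colon in every control mouse and 18.3% in every deficient mouse. In deficient mice Ifi44 (1.06 ± 0.28 (SE), adjusted p = 0.0131) was higher in 6 of 7 and Oasl2 (0.64 ± 0.20 (SE), adjusted p = 0.0249) in 7 of 7. The Oasl2 call was lost without deficient replicate 1 (0.51 (adjusted p = 0.0567)), without replicate 7 (0.49, adjusted p just above the threshold) and with no mouse block.

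Ifit1, Ifit3 and Irf7 were not called between segments in either genotype, and their mice went both ways. Ifit3 was higher in distal colon in 3 of 6 control and 1 of 7 deficient mice, Irf7 in 2 of 6 and 3 of 7, and Ifit1 in 4 of 6 and 4 of 7. Without deficient replicate 1, the only deficient mouse with more Ifit3 in distal colon, Ifit3 was called lower there (-0.67 (adjusted p = 0.0411)). Isg15 was higher in distal colon in 5 of 6 control mice (adjusted p = 0.244) and 6 of 7 deficient mice (adjusted p = 0.0660), and without deficient replicate 5 it was called in the latter (0.97 (adjusted p = 0.0165)). Ifit2 and Ifit3, neighbours in 1 cluster, thus had segment effects (log2) of 1.15 and -0.15 in control mice. Without control replicate 3, Isg15 (1.04 (adjusted p = 0.0246)) and Oasl2 (0.86 (adjusted p = 0.0231)) were called in control mice too, making 5 of 9.

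**Figure D3:**
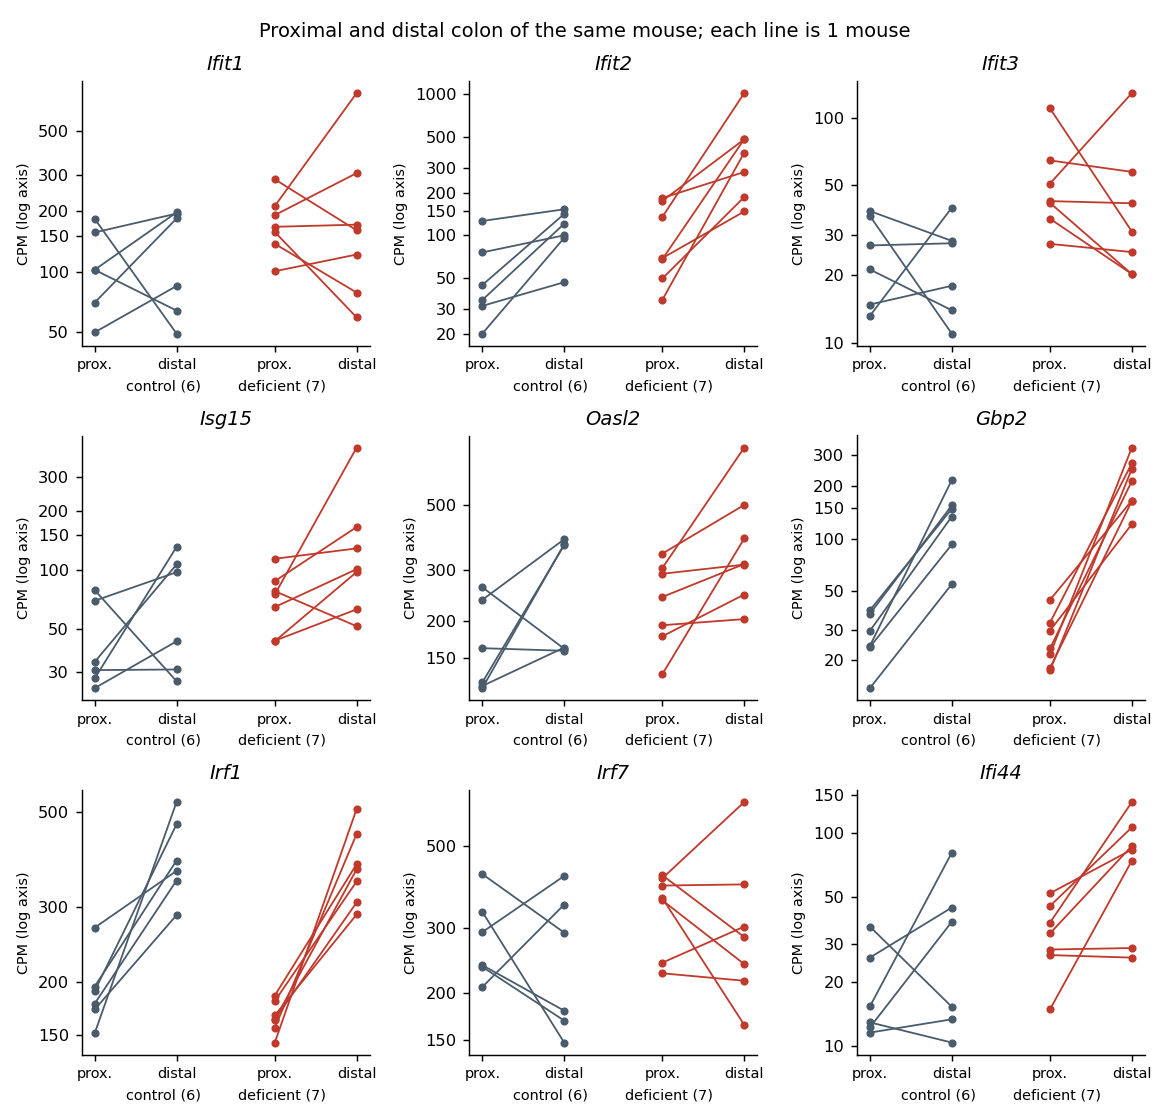
Level of each of the 9 genes in proximal and distal colon of the same mouse (CPM, log axis), with 1 line for each of the 6 control and 7 deficient mice that gave both segments. All lines rise for Gbp2, Irf1 and Ifit2, and lines cross in both directions for Ifit1, Ifit3 and Irf7.

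Segment and preparation cannot be told apart in these comparisons. In the deposited transcript tables, the largest gap between a transcript's length and its effective length was 249 bases in all 13 distal libraries and 215 to 246 bases in the 14 proximal libraries, so the segments were quantified with different fragment lengths. Markers of other cell types were called between segments too: 10 of 11 tested B cell markers were higher in distal colon in control and 11 of 11 in deficient mice, 8 and 2 of 12 epithelial markers were higher, and 5 and 10 of 10 smooth muscle markers and 5 of 18 T and NK cell markers in each genotype were lower. Over all genes, 21.5% and 22.7% were called higher and 43.8% and 45.1% in either direction, so the T and NK cell count and the deficient epithelial count are near the background. The part of these lists in the segment results was not tested. Transcript shares moved with segment as well. Oasl2-204, a retained-intron transcript, held 5.15% ± 0.742 (SD, n = 7) of Oasl2 TPM in proximal control and 16.9% ± 1.76 (n = 6) in distal control colon. Oasl2-205, annotated as subject to nonsense-mediated decay, held 47.0% ± 2.23 and 53.6% ± 2.24, and the coding Oasl2-201 26.3% ± 2.08 and 15.2% ± 1.25. Ifit1, Ifit3 and Isg15 have a single annotated transcript, and 1 transcript carried at least 97.3% of Ifit2 and 99.5% of Gbp2 TPM in every library.

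Within groups, 7 of the genes (Ifit1, Ifit2, Ifit3, Isg15, Oasl2, Irf7 and Ifi44) moved together from library to library, and Gbp2 and Irf1 did not follow them, a grouping made after the values were seen. The measure is the deviation of log2 CPM from the mean of the library's group. Among the 7 genes, Pearson's r over the 21 pairs ran from 0.73 to 0.93 in the 14 proximal libraries (Spearman's rho 0.65 to 0.93) and from 0.77 to 0.97 in the 13 distal libraries (rho 0.76 to 0.95). All 42 of these values had an adjusted permutation p of 0.00941 or less for r and 0.0332 or less for rho (two-sided, 100000 permutations within groups, adjusted over the 72 pairs of 9 genes in 2 segments). Without the 2 libraries farthest from the median, r ran from 0.55 to 0.91 and from 0.59 to 0.96.

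Gbp2 and Irf1 correlated with each other in distal colon (r = 0.87, rho = 0.88, adjusted permutation p = 0.00102 and adjusted permutation p = 0.00180; r = 0.87 without the 2 farthest libraries). In proximal colon their r of 0.60 did not pass (adjusted permutation p = 0.0617), while their rho of 0.72 did (adjusted permutation p = 0.0102). With the 7 other genes, Gbp2 and Irf1 had r of 0.12 to 0.55 in proximal and -0.36 to 0.23 in distal colon, none of them past the threshold (smallest adjusted permutation p = 0.0834). Without the 2 farthest distal libraries these r values ran from -0.66 to -0.082. The libraries highest on the mean of the 9 scaled deviations were control replicates 2 and 3 in proximal colon and deficient replicate 1 in distal colon, and the lowest were deficient replicate 7 in proximal and deficient replicate 5 in distal colon.

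**Figure D4:**
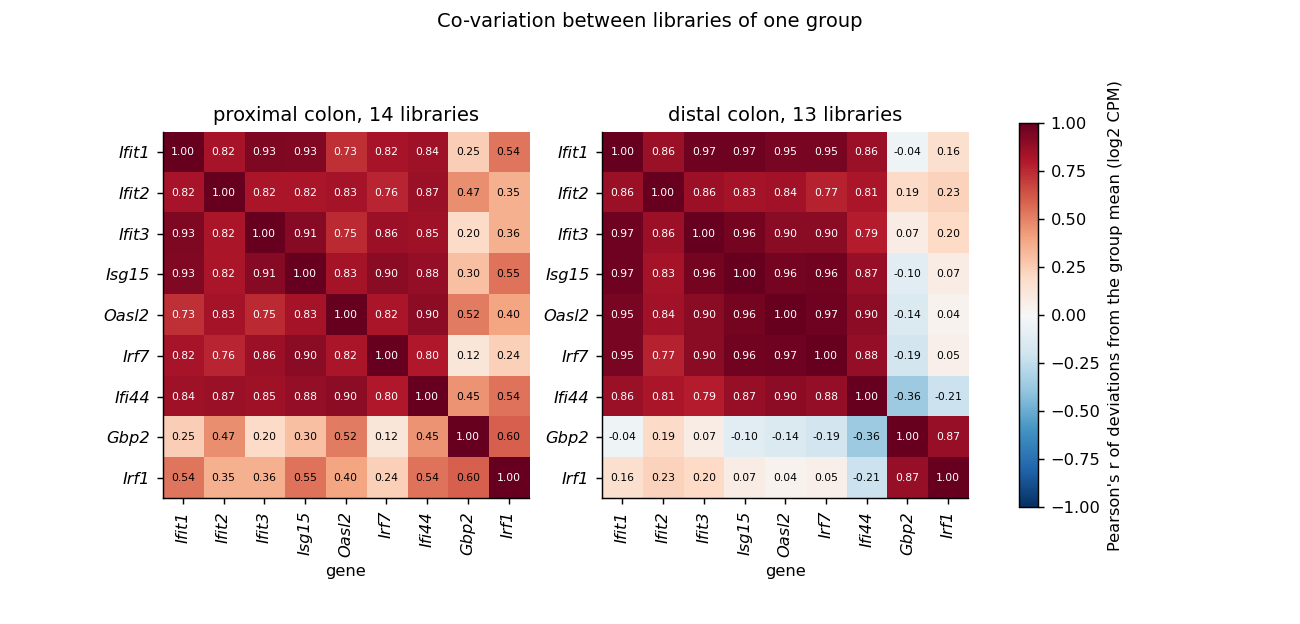
Pearson's r between the 9 genes of the deviations from the group mean (log2 CPM), over 14 proximal libraries on the left and 13 distal libraries on the right. The 7 genes from Ifit1 to Ifi44 form a block of high values in both panels, and the last 2 rows, Gbp2 and Irf1, stand apart from it.

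Across the 13 mice, a gene's deviation in proximal colon showed no called relation to its deviation in distal colon. Pearson's r ran from -0.34 for Irf1 to 0.40 for Ifit2 and rho from -0.24 to 0.40 (smallest adjusted permutation p = 0.745 over the 9 genes), and from -0.17 to 0.50 without the 2 farthest mice. By the same deviations, the genes most like the mean of the 9 were, among 14376 proximal genes at a mean of at least 1 CPM, Mx2, Ddx60, Usp18, Dhx58, Parp11, Oas1a, Phf11d and Irgm1 (r from 0.93 to 0.96, 14 libraries). Among 14038 distal genes they were Ube2l6, Oasl1, Trim30a, Trafd1, Lgals9, Ifi35, Apol9a and Dhx58 (r from 0.95 to 0.97, 13 libraries). Dhx58, a cytoplasmic RNA sensor, was the 1 gene in both sets of 8.

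Further genes of the pathway were taken from 10 lists. Transcripts of the interferons themselves were at or near 0: of 13 ligand genes, none passed the filter in proximal colon and 1, Ifng, did in distal colon. Ifnb1, Ifna1, Ifna5 and Ifne had no count in any of the 27 libraries, which allows at most 3 counts in each library, for counting error only. Ifng was the highest of the ligand genes, at 0.0496 to 0.442 CPM in proximal control and 0.168 to 0.597 CPM in distal deficient libraries, groups that differ in both segment and genotype. Its distal log2 fold change was 0.27 ± 0.36 (SE) (adjusted p = 0.752, edgeR's quasi-likelihood test). The difference of its genotype effect between segments was 1.30 ± 0.61 (SE) (adjusted p = 0.434, same test). Of the 6 receptor genes, Ifngr2, a chain of the interferon gamma receptor, rose in proximal colon (0.36 ± 0.090 (SE), adjusted p = 0.0141) and none was called in distal colon.

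None of the 6 genes of signal transduction was called between genotypes in either segment. Stat2, a factor of the type I and type III response, was at 46.1 to 89.2 CPM in control and 47.9 to 98.7 CPM in deficient proximal colon and at 62.0 to 104 CPM and 88.4 to 198 CPM in distal colon, so the groups overlapped in both. It had log2 fold changes of 0.20 ± 0.19 (SE) (adjusted p = 0.597) and 0.49 ± 0.20 (SE) (adjusted p = 0.197). Irf9, its partner on DNA, had log2 fold changes of 0.26 ± 0.10 (SE) (adjusted p = 0.136) and 0.25 ± 0.11 (SE) (adjusted p = 0.252). Both were higher in distal than in proximal colon in both genotypes, Stat2 by 0.45 ± 0.14 (SE) in control (adjusted p = 0.0259) and 0.75 ± 0.17 (SE) in deficient mice (adjusted p = 0.00573).

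Of 48 further antiviral effector genes, 47 were tested in each segment; in proximal colon 7 rose and 2 fell, with a median log2 fold change of 0.30, and in distal colon 0 rose and 2 fell, with a median of 0.42 (edgeR's quasi-likelihood test, adjusted over all genes), beside 5.52% and 2.7% of all genes called higher. Ifi27l2a rose in proximal colon from 14.6 ± 3.56 CPM to 47.1 ± 19.003 CPM (mean ± SD here and for the genes that follow; 1.71 ± 0.25 (SE), adjusted p = 1.85e-04). Ifitm3, which blocks the entry of viruses at endosomes, rose there from 58.1 ± 12.9 CPM to 97.1 ± 7.53 CPM (0.76 ± 0.13 (SE), adjusted p = 8.67e-04). Isg20, an exonuclease that degrades viral RNA, moved the other way in both segments. It fell from 13.3 ± 2.22 CPM to 5.45 ± 0.753 CPM in proximal (-1.27 ± 0.12 (SE), adjusted p = 5.28e-06) and from 10.4 ± 0.997 CPM to 6.09 ± 0.726 CPM in distal colon (-0.76 ± 0.12 (SE), adjusted p = 0.00102), with no overlap between genotypes in either. Tor3a fell in proximal colon (-0.53 ± 0.11 (SE), adjusted p = 0.00455).

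The 16 tested GTPases of the interferon gamma response, relatives of Gbp2, had a median log2 fold change of -0.28 in proximal and 0.68 in distal colon. Gbp3 rose in proximal colon (0.84 ± 0.21 (SE), adjusted p = 0.0163), and Gbp3 (1.39 ± 0.23 (SE), adjusted p = 0.00233) and Gbp7 (0.73 ± 0.19 (SE), adjusted p = 0.0362) rose in distal colon; none fell. In the test of the difference between segments 1 of the 16 was called, Gbp2b, at 0.677 to 3.03 CPM and 1.33 to 5.19 CPM in proximal and 0.995 to 3.22 CPM and 0.533 to 1.79 CPM in distal control and deficient libraries (-1.77 ± 0.37 (SE), adjusted p = 0.0322). Its direction was opposite to that of the list's median, 0.81. Of 12 chemokine and enzyme genes induced by interferon gamma, 2 fell in proximal colon, and 1 rose and 1 fell in distal colon. Ido1, which degrades tryptophan, fell from 11.5 ± 8.22 CPM to 1.07 ± 0.695 CPM in proximal (-3.40 ± 0.48 (SE), adjusted p = 1.55e-04) and from 16.7 ± 6.19 CPM to 1.83 ± 0.684 CPM in distal colon (-3.17 ± 0.29 (SE), adjusted p = 1.80e-05), and Wars, a tryptophan-tRNA ligase, fell in proximal colon (-0.58 ± 0.11 (SE), adjusted p = 0.00189). The chemokine Cxcl11 rose in distal colon (1.22 ± 0.34 (SE), adjusted p = 0.0497), a call lost in 20 of 24 alternatives.

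Among 16 nucleic acid sensors and adaptors, the RNA sensor Ddx58 rose in proximal (0.52 ± 0.15 (SE), adjusted p = 0.0328) and in distal colon (0.89 ± 0.23 (SE), adjusted p = 0.0304), and the DNA-binding Ifi204 rose in distal colon (1.35 ± 0.29 (SE), adjusted p = 0.0106). Irf8, a factor of myeloid and B cells, was the 1 of 6 other interferon regulatory factors called, and fell in proximal colon (-0.69 ± 0.14 (SE), adjusted p = 0.00270). Of 8 feedback inhibitors, Socs3 fell in proximal colon (-1.04 ± 0.31 (SE), adjusted p = 0.0411) and none was called in distal colon. None of the 13 class I presentation genes was called between genotypes. Between segments 10 of 13 were higher in distal colon in control and 9 of 13 in deficient mice, beside 21.5% and 22.7% of all genes. Of the genes named, Isg20 was called in 25 of 25 proximal and 24 of 24 distal alternatives and Ido1 in 25 of 25 and 24 of 24, whereas Ddx58 was called in 13 of 25 and 15 of 24, Gbp3 in 23 of 25 and 24 of 24, Gbp7 in 14 of 24 in distal colon, and Socs3 in 10 of 25 in proximal colon. In all, 10 of 130 tested pathway genes rose and 6 fell in proximal colon, and 5 of 131 rose and 3 fell in distal colon, shares near the 11.7% and 6.07% of all genes. The proximal number that rose was 2 among mice of 9 to 13 months and 4 against control mice without Cre, and with 1 library left out it ran from 5 (leaving out one of control replicates 1, 4 and 5 and deficient replicates 1 and 6) to 18 (leaving out control replicate 3). The distal number ran from 3 (leaving out one of control replicates 1, 2, 3 and 6 and deficient replicates 1 and 4) to 7 (leaving out deficient replicate 3), and was 14 with DESeq2.

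**Figure D5:**
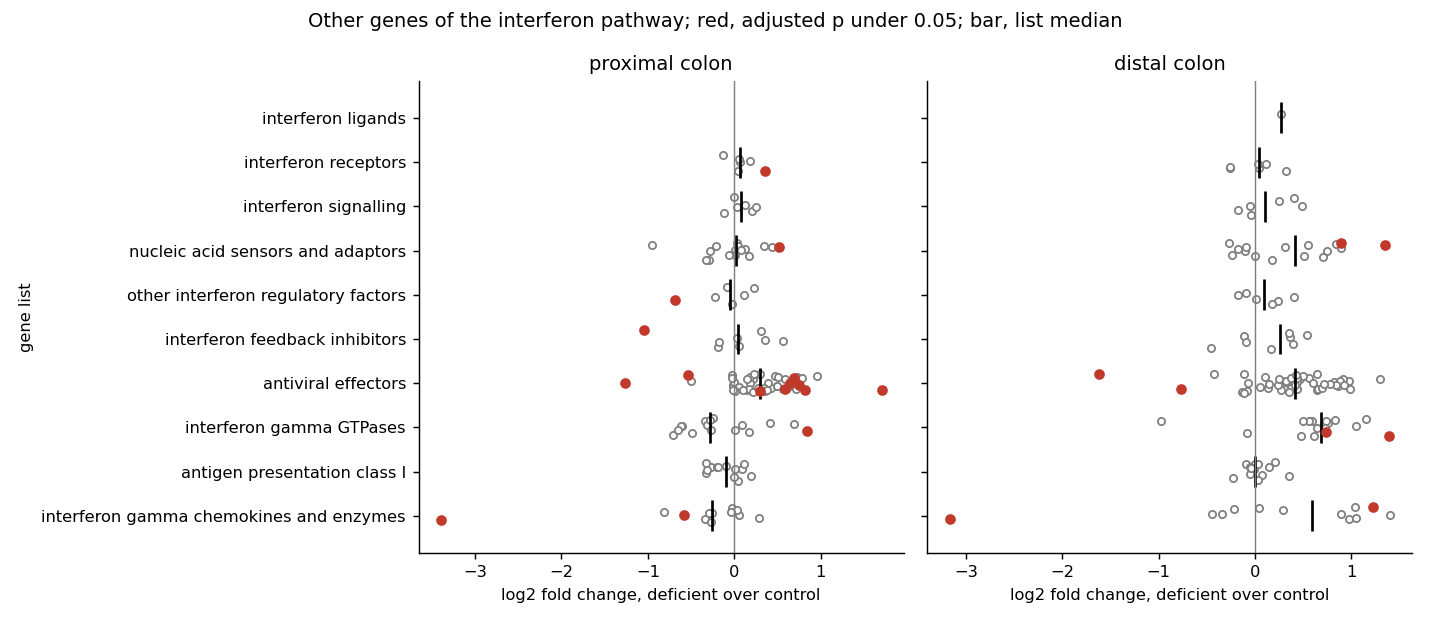
Log2 fold change of deficient over control for each tested gene of the 10 pathway lists in proximal (left) and distal colon (right), with genes called at an adjusted p under 0.05 in red and the list median as a bar. Most points are open, Ido1 lies farthest to the left in both panels, and the interferon gamma GTPase median is below 0 in proximal and above 0 in distal colon.

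Some markers of immune cells and fibroblasts were called between genotypes, and their part in these results was not tested. Over all genes, 5.52% were called higher and 11.7% in either direction in proximal colon, and 2.7% and 6.07% in distal colon. Single calls in the longer lists are therefore near the background. The summed level of 15 macrophage and monocyte markers was 189 to 497 CPM in proximal control, 385 to 586 in proximal deficient, 331 to 644 in distal control and 285 to 1014 CPM in distal deficient libraries, with 2 of 15 called higher in proximal and 1 in distal colon. Itgam was called in both (0.51 ± 0.15 (SE), adjusted p = 0.0341; 1.13 ± 0.26 (SE), adjusted p = 0.0180), and Mertk in proximal colon (0.67 ± 0.085 (SE), adjusted p = 5.58e-05). Of 10 neutrophil markers, 4 were tested and 1, Ly6g, called higher in proximal colon, and 5 were tested and 3 called higher in distal colon, S100a8 (3.14 ± 0.78 (SE), adjusted p = 0.0256), S100a9 and Cxcr2. The neutrophil sum was 1.91 to 4.76 and 3.99 to 6.53 CPM in proximal and 127 to 991 and 165 to 621 CPM in distal control and deficient libraries, with Elane at 0 in distal control and Ngp at 0 in distal deficient libraries. Ly6g alone was at 124 to 970 CPM in distal control and 157 to 507 CPM in distal deficient libraries, so 1 gene led the distal sum. The 18 T and NK cell markers summed to 72.5 to 136 and 79.2 to 127 CPM in proximal and 48.6 to 122 and 70.9 to 114 CPM in distal colon, with 1, Lck, called lower in proximal colon. B cell markers summed to 18.4 to 206 and 20.7 to 77.6 CPM in proximal and 52.9 to 404 and 46.7 to 485 CPM in distal colon, and none was called between genotypes, with a median log2 fold change of -1.58 in proximal and 0.50 in distal colon. Genes listed as markers of plasmacytoid dendritic cells, which secrete type I interferon, summed to 726 to 967 and 570.2 to 1106 CPM in proximal and 563 to 856 and 591 to 1183 CPM in distal colon. Other cells also express genes of this list, so the sum is not a measure of how many of these cells were present. Of the 8 tested, 1 was called higher in distal colon, Ly6d, which other cells also express (3.18 ± 0.59 (SE), adjusted p = 0.00438). The 10 plasma cell markers summed to 2978 to 5412 and 4838 to 7169 CPM in proximal and 3468 to 9096 and 4256 to 11853 CPM in distal colon, with Prdm1 called higher in proximal (0.63 ± 0.15 (SE), adjusted p = 0.0103) and distal colon (1.15 ± 0.18 (SE), adjusted p = 0.00120). The 10 fibroblast markers summed to 457 to 717 and 572 to 854 CPM in proximal and 389 to 657 and 277 to 821 CPM in distal colon, with Pdgfra (0.54 ± 0.14 (SE), adjusted p = 0.0164) and Pdgfrb (0.44 ± 0.12 (SE), adjusted p = 0.0264) called higher in proximal colon.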

How the data were processed

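Polyadenylated RNA was sequenced from 27 colon libraries of 14 mice. The submitters' processing notes name kallisto 0.46.2, cutadapt 2.5, edgeR and bcl2fastq 2.20.0.422, in no stated order, and the build GRCm38 (mm10). Per the file headers, the deposited transcript tables hold estimated counts, TPM (per-length transcript levels) and the effective length in bases that the authors' quantification gave, and the authors' deposited matrices hold log2 CPM per gene for 1 segment each. The library kit named in the labels does not mark strand, so reads from a gene and an overlapping antisense gene cannot be told apart.

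Of 119414 transcripts, 116728 matched the reference annotation (GENCODE vM21) and were summed to 35975 genes; the other transcripts held 0.902% to 1.27% of a library's counts. Totals ran from 18472867 to 56744113 estimated counts, and sums were rounded to whole numbers. Each comparison used edgeR 4.0.16 in R 4.3.3 (quasi-likelihood test, filterByExpr, TMM, Benjamini-Hochberg adjustment over all genes tested, called at an adjusted p under 0.05). Each SE of an edgeR fold change was derived from its test, as the absolute log2 fold change over the square root of the F statistic. Approximate 95% intervals are the log2 fold change plus or minus 1.960 SE. That factor is narrow for so few libraries, so an interval can leave out 0 where the unadjusted p is above 0.05. Alternatives were RLE size factors, no filter on low counts, DESeq2 1.42.0, transcript length offsets, limma 3.58.1 on the deposited log2 CPM, subsets by Cre, sex and age, summed gene copies, the replicate block, and leaving out each library or mouse. Tested on simulated data, the test called 85% of 2-fold changes among 16787 genes in the proximal comparison, 62% among 16041 in the distal one and 54% among 17595 in the difference between segments. Of the calls made there, 2.16%, 6.21% and 4.41% were false, in that order. Between segments it called 73% of 2-fold changes in control and 68% in deficient mice, with 5.06% and 10.1% of the calls false. These simulated shares are over all genes tested and were not worked out for the interferon-stimulated genes alone.

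The labels place both segments in the same mouse for 13 mice, so segment comparisons and the difference between segments had the mouse as a block; deviations of the 2 segments of a mouse from their group means correlated at r of −0.05 to 0.42 over 17633 genes, as a description. The 9 genes, the gene lists and the tests were chosen with earlier results of these data known. Named in the text were the 9 genes, their close copies, Stat2, Irf9 and Ifng, and up to 4 called genes by smallest p from each pathway list and genotype comparison; Gbp2b was named as the 1 called gene of its list in the difference between segments, and marker genes as those called. One further gene of the rule is not reported here. Likeness was Pearson's r between a gene's deviations and the mean of the 9 scaled deviations, for the 8 highest genes in each segment. Correlations between the 9 genes used log2 CPM with a prior count of 2 and 100000 permutations within groups.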

Additional observations from a re-analysis of the deposited data

Results flagged for a closer look

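Among 36 groups of libraries screened (9 genes in 4 groups), 5 had a highest library that stood far from its group in CPM. The gap to the next library was compared with the group's whole range by Dixon's criterion. Its rate by chance, about 1 in 20 groups, holds for normally distributed levels. The screen used CPM and not its logarithm, which draws in high values, so the number found cannot be set against that rate. In 4 of the 5 the library was distal deficient replicate 1, at 768 CPM for Ifit1 against 308 CPM in the next library, 1016 against 480.1 CPM for Ifit2, 128 against 57.4 CPM for Ifit3 and 422 against 166 CPM for Isg15. Genes that move together are not separate evidence. The proximal library of the same mouse was not the highest of its group for any of the 4. The fifth was Irf1 in proximal control replicate 3, at 268 CPM against 195 CPM in the next library.

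The genotype effects of 2 related genes differed between segments by the test of the difference itself (edgeR's quasi-likelihood test). For Ifit1bl2 the distal minus the proximal effect was -2.25 on the log2 scale (adjusted p = 0.0158), called in 18 of 18 alternatives. For Gbp2b, at no more than 5.19 CPM in any library, it was -1.77 (adjusted p = 0.0322), called in 9 of 18 alternatives.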

How the results depend on the processing

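No called result changed direction in any alternative; of 2244 fold changes computed under an alternative, 65 lay on the other side of 0, none of them called. In proximal colon the number of the 9 genes called was 4 with DESeq2, 2 among mice labelled male, 3 when deficient replicate 3 was left out as well, and 0 both against control mice without Cre and among mice of 9 to 13 months, beside 1 in the reported fit. With 1 library left out it was 1 to 4, and the number of all genes called was 1627 to 2255. In distal colon all genes called numbered 1504 with DESeq2, 569 among mice labelled male without deficient replicate 3 and 792 to 1007 with 1 library left out, beside 973. For the difference between segments they numbered 529 with DESeq2 and 102 to 225 with 1 mouse left out, beside 178, with 0 of the 9 called in each. Between segments, the 9 genes gave 3 to 5 calls in control and 4 to 6 in deficient mice with 1 mouse left out, and all genes 5381 to 7311 and 5906 to 7370. The cause was not tested; the subsets hold fewer libraries by construction.

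Control and deficient mice of the same replicate number are different animals, and their deviations correlated at r of −0.13 to 0.23. With the replicate block, 1696 genes were called in proximal and 689 in distal colon, and the 9 genes gave 1 and 0 calls, since distal Ifit2 was at 1.69 (adjusted p = 0.107). With no replicate block for the mouse, Ifit2 between segments of control mice was at 0.98 (adjusted p = 0.0647) and Oasl2 in deficient mice at 0.71 (adjusted p = 0.0516).

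Proximal Ifit3 was called in 23 of 25 alternatives and distal Ifit2 in 23 of 24. In distal colon 62% of simulated 2-fold changes among 16041 genes were called, so a 2-fold change could be missed there. That share was not worked out for the interferon-stimulated genes alone, so it is not their rate of recovery. Ifit3 at 2.01-fold, Isg15 at 2.03-fold and Ifi44 at 2.32-fold were not called in distal colon, whereas Ifit2 at 3.88-fold was. In proximal colon Ifit2 at 1.97-fold was not called. Of 13 interferon genes, 12 were too low to be tested in any comparison.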

Other observations

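Between segments of the same mouse, pathway genes other than the 9 were called higher in distal colon more often than lower. Of the 130 tested, 64 were called higher and 6 lower in control mice, and 76 and 4 in deficient mice, beside 21.5% and 22.7% of all genes called higher. The antiviral effectors had 20 of 47 higher in control and 22 of 47 in deficient mice, with median log2 fold changes of 0.48 and 0.44. The interferon gamma GTPases had 7 and 12 of 16 (medians 0.63 and 1.14), and the interferon gamma chemokines and enzymes 7 and 10 of 12 (medians 0.87 and 1.51). Of the sensors and adaptors, 7 and 9 of 16 were called higher. Whether the counts differ between genotypes was not tested.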
